A study of Mus musculus with 86 samples.

Results

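The genes described here are 9 genes of protein breakdown in muscle: the ubiquitin ligase genes Fbxo32, Trim63, Asb2 and Asb5, and the autophagy genes Bnip3, Sqstm1, Map1lc3a, Gabarapl1 and Becn1. They were taken by symbol from the array's annotation, which gave them 18 of the 34945 probe sets that name a single gene, and they make up 9 of 18193 genes. All 9 genes and 17 of the 18 probe sets passed the filter on dim signals, the exception being Becn1 probe set 1430358_at. Heart RNA was read on Affymetrix arrays in mice that received isoproterenol, a drug that stimulates beta-adrenergic receptors, as a 14-day infusion of 120 µg/g/day, and in untreated mice. The isoproterenol and untreated arrays compared numbered 12 and 10 for FVB, 10 and 11 for C57BL/6, 9 and 10 for the line the labels call B2KO, and 12 and 10 for B6129SF2/J. The labels do not explain B2KO further and give no age. Per the study's description, FVB and B2KO mice developed systolic dysfunction on infusion and C57BL/6 mice diastolic dysfunction, and B6129SF2/J mice served as a separate cohort for prediction.

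Muscle cells break proteins down by 2 main routes. In the ubiquitin route, a ligase attaches ubiquitin chains to chosen proteins, and the proteasome then degrades them. Fbxo32 (atrogin-1) and Trim63 (MuRF1) are the classical ligases of muscle wasting, and Asb2 and Asb5 belong to a family of ankyrin-repeat proteins with a SOCS box that recruit substrates to cullin ligases. In autophagy, a membrane coated with Atg8 family proteins encloses cargo and delivers it to the lysosome.

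Before the results, 4 points on the arrays apply. Isoproterenol B2KO arrays 4 and 9 were duplicates and counted as 1, and isoproterenol B2KO array 10 had failed by its correlation with all other arrays (median r = 0.573, against 0.831 to 0.963) and was left out of the fit. At the strain markers, isoproterenol FVB array 2 lay closer to C57BL/6 than to its own background and isoproterenol B2KO array 7 lay about as far from its own as from the next. A further 5 arrays had a large difference between the 3′ and 5′ probe sets of Gapdh, a sign of degraded or poorly labelled RNA, among them untreated C57BL/6 array 11 and untreated B2KO array 8 (7.43 and 7.31 log2 units). Untreated C57BL/6 arrays 1, 2, 3, 4 and 6 also grouped apart from the other 6 untreated C57BL/6 arrays when clustered over 11820 genes outside the members and all gene lists. Their pairwise r was 0.960 to 0.973, and their 75th percentile of intensity was 3.49 to 6.03, against 6.10 to 7.18 on the other 6. The cause was not tested, and because 4 autophagy genes read lower on those 5 arrays, C57BL/6 results are also given from a fit without them, which was chosen after seeing the data. The cardiomyocyte markers were bright in every group, while 6 of 9 skeletal muscle markers (Myh1, Myh2, Myh4, Tnnt3, Actn3 and Pvalb) had a mean under the array median in every group.

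Values are log2 intensities with the median of each array at 0, and a change is the difference of group means, isoproterenol minus untreated, ± SE. A gene counted as changed at an adjusted p under 0.05 in limma, a linear model fitted over all arrays, with Benjamini-Hochberg adjustment over 11961 genes. By that test 5 of the 9 genes changed in C57BL/6, where 27.1% of all genes did, and 2 of 9 in B6129SF2/J, where 8.41% did. In FVB 1 of 9 changed, against 3.14% of all genes, and in B2KO 0 of 9, against 0.36%. Of the C57BL/6 changes 3 were higher and 2 lower, where 18.0% of all genes were higher and 9.13% lower. The C57BL/6 count without the 5 untreated arrays was 3 of 9 (Asb5, Fbxo32 and Map1lc3a), where 10.6% of all genes changed. In B6129SF2/J 1 was higher and 1 lower, where the shares were 4.11% and 4.3%, and in FVB the 1 gene was lower, where 1.43% of genes were lower and 1.71% higher. At an unadjusted p under 0.05 limma gave 2 genes in B2KO, where 11.4% of all genes lay under it. With the failed array kept or with array weights 1 and 2 passed the adjusted threshold. The shares of all genes in those fits are not given here. Intensities were read on whole hearts, so fewer cells of a type and less RNA per cell cannot be told apart.

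The clearest change was in Asb5, which fell in 3 of the 4 lines. In C57BL/6 its level ran from 2.97 to 3.91 with a median of 3.50 in isoproterenol hearts, against 4.59 to 6.35 with a median of 5.34 in untreated hearts. The groups did not overlap. Of all genes, 0.226% were lower in isoproterenol C57BL/6 hearts without overlap. The change was -1.85 ± 0.30 (adjusted p = 2.98e-06), which left 0.278 of the untreated intensity. Without the 5 untreated arrays that grouped apart it was -1.86 (adjusted p = 4.53e-04), and without the other 6 it was -1.84 (adjusted p = 7.80e-05).

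In FVB, Asb5 read from 1.52 to 4.87 (median 3.34) in isoproterenol hearts and from 2.81 to 5.65 (median 4.83) in untreated hearts, and 11 of 12 isoproterenol arrays lay below the untreated mean. The exception, at 4.87, was array 2, the one whose strain markers lay near C57BL/6. The change was -1.38 ± 0.29 (adjusted p = 0.00173), and -1.52 without the 2 arrays in doubt by strain markers. In B6129SF2/J the isoproterenol hearts had 3.04 to 4.36 (median 3.61) and the untreated hearts 4.32 to 5.81 (median 4.57), so that 11 of 12 isoproterenol arrays lay below every untreated one. The change there was -1.19 ± 0.29 (adjusted p = 0.0044). Asb5 was thus among the 0.343% of genes that were lower at the threshold in FVB, C57BL/6 and B6129SF2/J alike.

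B2KO hearts divided at Asb5. Of the isoproterenol arrays, 5 read between 2.87 and 3.06 and the other 4 between 4.27 and 5.43, while untreated hearts ran from 2.81 to 5.81 with a median of 4.92. The change of -1.03 ± 0.31 did not pass (adjusted p = 0.128). It passed without isoproterenol array 3, isoproterenol array 5 or untreated array 1, with an adjusted p down to 0.0366, and with the failed array kept, which itself read 1.28 (-1.27, adjusted p = 0.0246), or with array weights (-1.42). Untreated array 1, the lowest untreated B2KO array at 2.81, also stood apart at the sex genes, with Xist at 3.20, against -2.21 to 0.59 on the other arrays, and Eif2s3y at -0.57, against 2.06 to 6.65.

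Averaged over the 4 lines with equal weight, Asb5 was lower by -1.36 ± 0.15 (adjusted p = 1.05e-11). In that average 3 of the 9 genes changed, 2 higher and 1 lower, where 28.3% of all genes did (14.6% higher, 13.7% lower). No difference between the lines' Asb5 changes passed the test, and the largest was 0.82 ± 0.43 for B2KO minus C57BL/6 (adjusted p = 0.252). Among the pairs of lines without C57BL/6, 0.0%, 0.0334% and 0.0669% of all genes passed that test. The order of the group means, high to low, was untreated C57BL/6 (5.33), B6129SF2/J (4.82), B2KO (4.77) and FVB (4.72), then isoproterenol B2KO (3.74), B6129SF2/J (3.63), C57BL/6 (3.48) and FVB (3.34). None of the 6 differences between untreated lines passed for Asb5, where 0.0502% to 17.8% of all genes did (12.1% for B6129SF2/J minus FVB, 8.03% for B6129SF2/J minus B2KO), so neighbours among the untreated groups were not told apart. Every untreated group mean lay above every isoproterenol group mean.

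The window of 250 bases before to 50 after an annotated Asb5 start is shown because Asb5 fell in 3 lines, and so that its letters can be set beside those of the other genes. Sequences are from RefSeq on GRCm38.p6, and 6 of the 9 genes had an entry: Trim63, Asb2, Asb5, Bnip3, Sqstm1 and Gabarapl1. The Asb5 window below is chr8:54550081-54550380, plus strand, and its capitals mark ACGTG, the core letters of a hypoxia response element, at position -98 from the start. Across 32851 promoter windows, ACGTG in either direction was found in 19.6%. The windows of the 2 other annotated Asb5 starts held none of the 4 motifs searched.
Asb5: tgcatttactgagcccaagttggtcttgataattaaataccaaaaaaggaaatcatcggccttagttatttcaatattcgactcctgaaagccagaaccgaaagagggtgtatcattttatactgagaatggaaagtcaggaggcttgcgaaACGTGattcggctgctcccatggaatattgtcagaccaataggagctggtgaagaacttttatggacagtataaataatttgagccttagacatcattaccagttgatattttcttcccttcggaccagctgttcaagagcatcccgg

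Asb2, whose product promotes breakdown of filamins in muscle, was read near 8 log2 units in most hearts. In C57BL/6 it ran from 7.27 to 8.87 (median 8.38) in isoproterenol hearts and from 4.47 to 7.90 (median 7.57) in untreated hearts. All 10 isoproterenol arrays lay above the untreated mean and 6 lay above every untreated array. That mean included untreated C57BL/6 array 11, in doubt by Gapdh, which gave the 4.47 where the next lowest read 6.81. The change of 0.99 ± 0.42 did not pass (adjusted p = 0.0653). The SE is shared over all groups, and untreated B2KO array 8, with its degraded Gapdh signal, read 0.00 at Asb2 where the other untreated B2KO arrays read 7.19 to 8.38. Without that array the SE was 0.22 and the C57BL/6 rise passed (adjusted p = 3.12e-04), and without all 7 arrays in doubt it was 0.71 (adjusted p = 6.66e-04). With untreated B2KO array 8 kept, leaving out the 5 untreated C57BL/6 arrays that grouped apart gave 1.00 ± 0.51. That change did not pass in the fit of all probe sets (adjusted p = 0.181).

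In the other lines Asb2 did not pass. The changes were 0.21 ± 0.41 in FVB (adjusted p = 0.863), 0.60 ± 0.44 in B2KO (adjusted p = 0.611) and 0.06 ± 0.41 in B6129SF2/J (adjusted p = 0.959). The B2KO value turned to -0.19 without untreated array 8. The 2 Asb ligases ran in opposite directions in C57BL/6 hearts. Asb5 was lower at the threshold with and without the 5 untreated arrays that grouped apart. Asb2 passed as higher in the fits without untreated B2KO array 8. With that array kept, Asb2 did not pass in the main fit or without those 5 untreated C57BL/6 arrays.

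**Figure D1:**
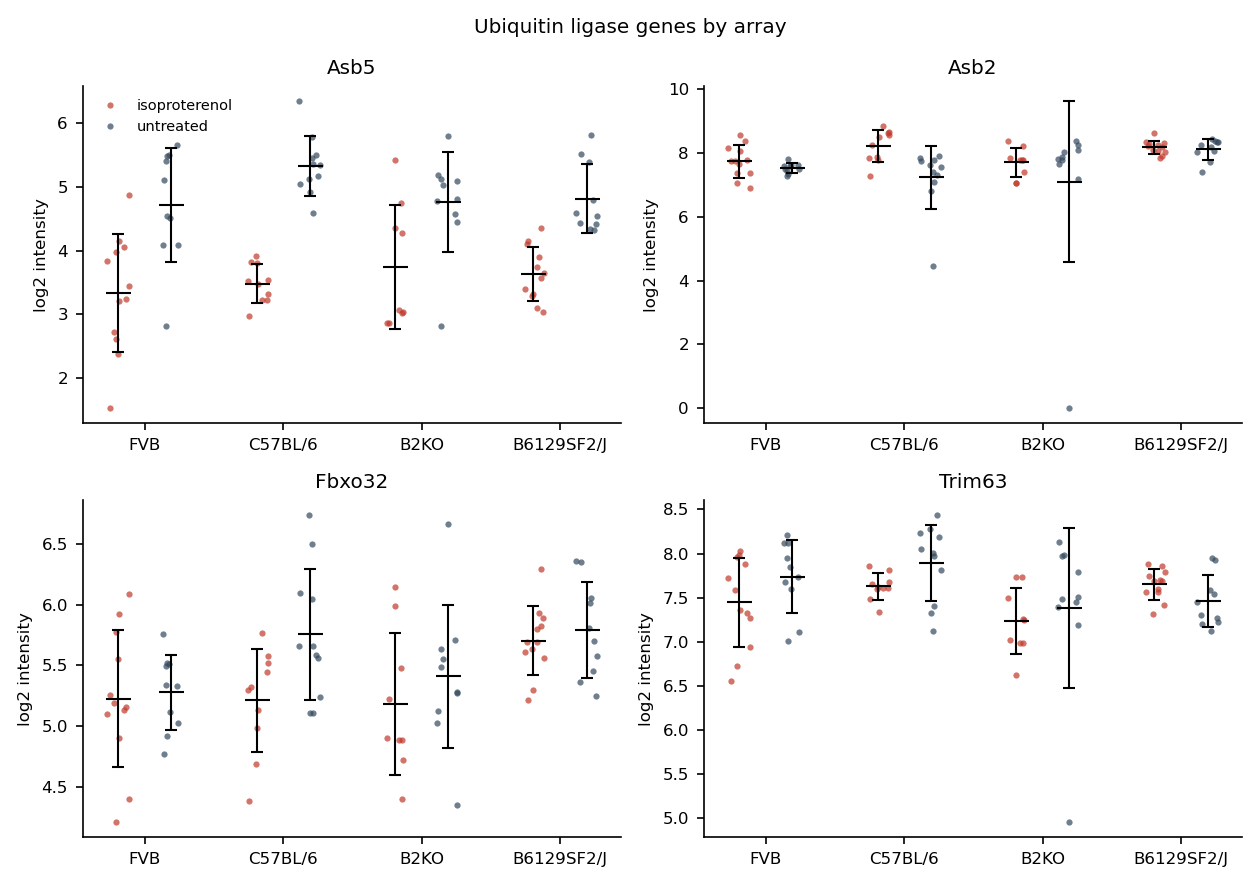
Log2 intensity of the 4 ligase genes on each array (points), with the group mean and SD (bars), for isoproterenol and untreated hearts of 4 lines. Asb5 reads lower in isoproterenol hearts, without overlap in C57BL/6, and untreated B2KO array 8 lies far below its group at Asb2 (0.00) and Trim63 (4.95).

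Trim63, the ligase of myofibril proteins such as troponin I and myosin, changed in no line at the threshold. Its level ran from 6.55 to 8.03 (median 7.47) in isoproterenol FVB hearts and from 7.01 to 8.21 (median 7.79) in untreated FVB hearts. In C57BL/6 it ran from 7.34 to 7.86 (median 7.62) on isoproterenol and from 7.12 to 8.43 (median 8.00) without. The groups overlapped in both lines.

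The Trim63 changes were -0.29 ± 0.20 in FVB (adjusted p = 0.516), -0.27 ± 0.20 in C57BL/6 (adjusted p = 0.340), -0.16 ± 0.21 in B2KO (adjusted p = 0.815) and 0.19 ± 0.20 in B6129SF2/J (adjusted p = 0.627). Averaged over the lines the change was -0.13 ± 0.10, with an approximate 95% interval of -0.33 to 0.07. Untreated B2KO array 8, which read 4.95, weighed on these values: without it the B2KO change was -0.43 ± 0.17 (adjusted p = 0.356) and the average -0.20 ± 0.08 (adjusted p = 0.0573). With array weights the changes passed in FVB (-0.40, adjusted p = 0.0382), C57BL/6 (-0.37, adjusted p = 0.0448) and B2KO (-0.50, adjusted p = 0.0129). With each array centred on its genes the C57BL/6 change passed too (-0.43, adjusted p = 0.0479).

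FoxO factors are known activators of Trim63, and its window is shown for the one FoxO core match (GTAAACA, read on the other strand as TGTTTAC) found among the promoters of the 6 genes. The match, in capitals, begins at position -194 in chr4:134314870-134315169, plus strand, and 3.65% of all windows held one in either direction.
Trim63: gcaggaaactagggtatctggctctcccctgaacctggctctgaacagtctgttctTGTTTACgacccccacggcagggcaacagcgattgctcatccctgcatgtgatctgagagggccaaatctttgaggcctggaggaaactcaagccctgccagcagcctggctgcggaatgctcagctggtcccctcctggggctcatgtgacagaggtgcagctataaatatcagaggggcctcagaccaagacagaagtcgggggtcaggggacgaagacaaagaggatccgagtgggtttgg

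Fbxo32, which encodes the F-box protein atrogin-1, gave answers that depended on the probe set. Its brightest probe set, 1435265_at, read from 4.39 to 5.77 (median 5.31) in isoproterenol C57BL/6 hearts and from 5.10 to 6.73 (median 5.65) in untreated ones, and 9 of 10 isoproterenol arrays lay below the untreated mean. The change was -0.54 ± 0.21 (adjusted p = 0.0419). This call was lost when any of 9 of the 21 C57BL/6 arrays was left out. It was also lost in the unfiltered fit (adjusted p = 0.0582), with the failed array kept (adjusted p = 0.125), without the 7 arrays in doubt (adjusted p = 0.0542) and in the line's own fit (adjusted p = 0.0647). Without the 5 untreated arrays that grouped apart it was -0.73 (adjusted p = 0.0419), and without the other 6 it was -0.32 (adjusted p = 0.326). In FVB, B2KO and B6129SF2/J the changes at this probe set were -0.05 ± 0.20, -0.23 ± 0.22 and -0.09 ± 0.20 in that order, and none passed (adjusted p = 0.936, 0.715 and 0.855).

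At 1448747_at the same C57BL/6 hearts gave a rise. Isoproterenol hearts read 3.64 to 5.72 (median 5.06) and untreated hearts 1.63 to 4.49 (median 2.74), with all 10 isoproterenol arrays above the untreated mean and 6 above every untreated array. In the fit of all probe sets, in which 28.7% of 21459 probe sets changed in C57BL/6, the change was 1.94 ± 0.42 (adjusted p = 3.08e-04). The 5 untreated arrays that grouped apart read 1.63 to 2.74 here and the other 6 read 2.37 to 4.49, and without those 5 the change was 1.33 ± 0.49 and did not pass (adjusted p = 0.0621). In B6129SF2/J the same probe set fell, with 2.47 to 3.86 (median 3.38) in isoproterenol hearts and 3.47 to 5.48 (median 5.03) in untreated hearts. All 12 isoproterenol arrays lay below the untreated mean and 8 below every untreated array (-1.57 ± 0.41, adjusted p = 0.00785, where 8.06% of probe sets changed).

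The difference between the 2 changes at 1448747_at was -3.51 ± 0.58 for B6129SF2/J minus C57BL/6 (adjusted p = 1.33e-05), and -2.90 ± 0.64 without the 5 untreated C57BL/6 arrays (adjusted p = 0.00343). The third probe set, 1417522_at, also fell in B6129SF2/J (-0.84 ± 0.25, adjusted p = 0.0217) and read 0.45 in C57BL/6, which did not pass (adjusted p = 0.176). Across 84 arrays Spearman's rho was 0.05 between 1435265_at and 1448747_at, 0.37 between 1435265_at and 1417522_at, and 0.57 between the last pair. Averaged over its probe sets, Fbxo32 rose in C57BL/6 (0.61, adjusted p = 0.0371) and fell in B6129SF2/J (-0.83, adjusted p = 0.0109). No direction for Fbxo32 as a gene holds over its probe sets in C57BL/6, and which of them reads its RNA was not tested.

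**Figure D2:**
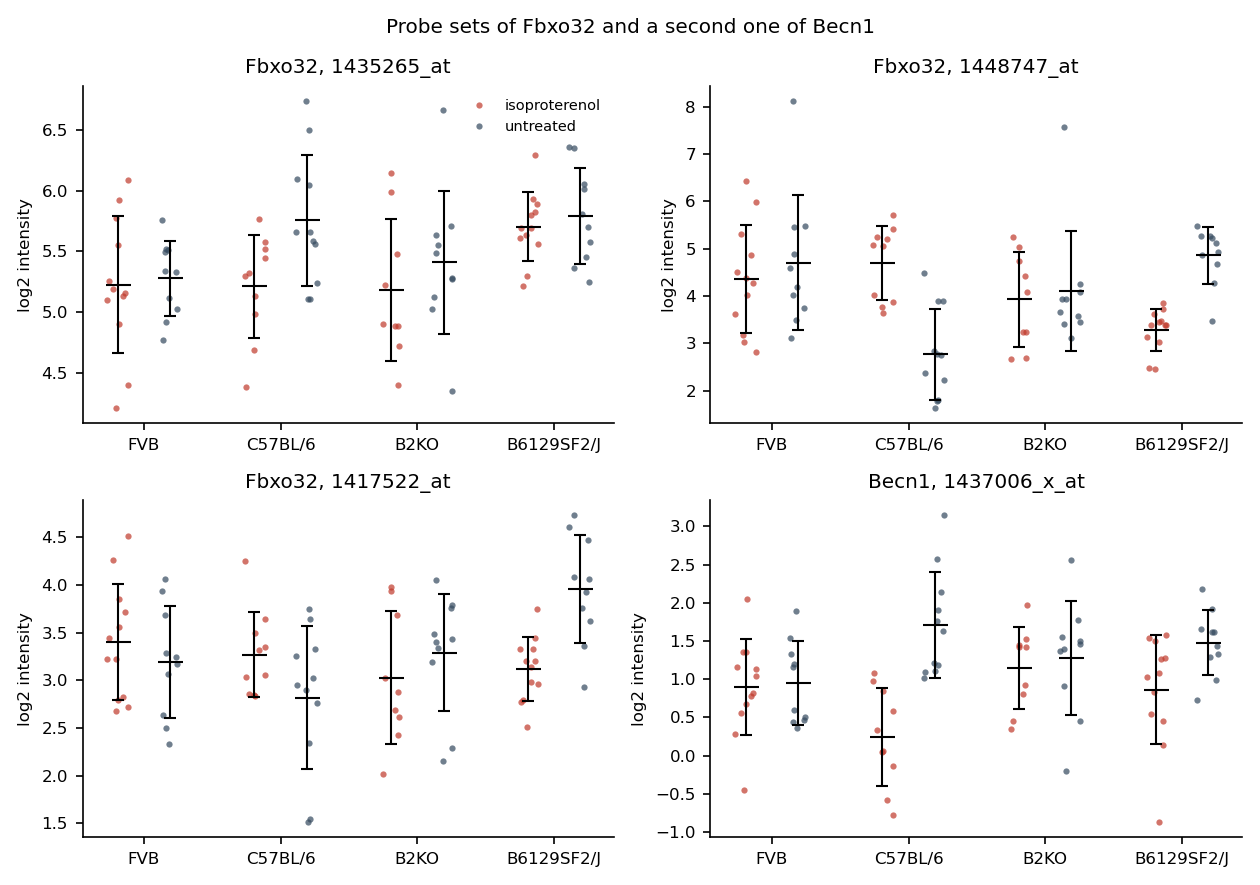
Log2 intensity on each array for the 3 probe sets of Fbxo32 and for Becn1 probe set 1437006_x_at (points, with group mean and SD), for isoproterenol and untreated hearts of 4 lines. In C57BL/6, isoproterenol hearts read lower at Fbxo32 1435265_at (-0.54) and higher at Fbxo32 1448747_at (1.94).

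Of the autophagy genes, Bnip3, Map1lc3a and Gabarapl1 rose in C57BL/6 hearts over all arrays, but Map1lc3a alone passed without the 5 untreated arrays that grouped apart. Map1lc3a encodes an LC3 protein of the Atg8 family that coats the growing autophagosome. It ran from 8.67 to 9.92 (median 9.21) in isoproterenol hearts, against 6.71 to 9.13 (median 8.16) in untreated hearts. All 10 isoproterenol arrays lay above the untreated mean and 6 above every untreated array. The rise was 1.26 ± 0.19 (adjusted p = 1.36e-06), or 2.39-fold, and its second probe set, 1451290_at, rose by 1.40 ± 0.46 (adjusted p = 0.0165). The 5 untreated arrays that grouped apart read 6.71 to 7.56 and the other 6 read 8.16 to 9.13, so the untreated hearts were in 2 separate ranges. Without those 5 arrays the rise was 0.69 ± 0.20 (adjusted p = 0.0178), and without the other 6 it was 1.94 ± 0.21 (adjusted p = 4.88e-11). At 1451290_at it was 1.09 ± 0.56 without those 5 and did not pass (adjusted p = 0.180). Both changes at 1451290_at include untreated C57BL/6 array 11, in doubt by Gapdh, which read 4.72. The rest of the other 6 read 7.54 to 9.08. Untreated B2KO array 8 read -0.64 at this probe set, and the SE is shared over all groups.

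In the other lines the Map1lc3a groups overlapped widely. FVB isoproterenol hearts had 8.32 to 9.84 (median 8.81) and untreated hearts 7.82 to 9.37 (median 8.72), a change of 0.23 ± 0.19 (adjusted p = 0.614). The changes were -0.11 ± 0.20 in B2KO (adjusted p = 0.869) and -0.15 ± 0.19 in B6129SF2/J (adjusted p = 0.701).

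Over all arrays the C57BL/6 rise of Map1lc3a was larger than the change in each other line. The differences from C57BL/6 were -1.03 ± 0.27 for FVB (adjusted p = 0.0189), -1.37 ± 0.28 for B2KO (adjusted p = 0.00245) and -1.41 ± 0.27 for B6129SF2/J (adjusted p = 3.80e-04). These 3 differences share the C57BL/6 arrays. Among all genes, 3.75%, 5.6% and 10.8% passed in the same 3 comparisons. None of the 3 passed without the 5 untreated C57BL/6 arrays, where the differences were -0.46 for FVB (adjusted p = 0.485), -0.80 for B2KO (adjusted p = 0.240) and -0.84 for B6129SF2/J (adjusted p = 0.0893).

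The untreated hearts also differed. Untreated C57BL/6 had a mean of 7.97, and untreated FVB, B2KO and B6129SF2/J were higher by 0.70 ± 0.19 (adjusted p = 0.00677), 0.90 ± 0.19 (adjusted p = 4.18e-04) and 0.85 ± 0.19 (adjusted p = 0.00146), where 17.8%, 14.1% and 13.7% of genes passed. On isoproterenol the means were 9.23 in C57BL/6, 8.90 in FVB, 8.76 in B2KO and 8.67 in B6129SF2/J. The untreated C57BL/6 mean was the lowest of the 8 groups. These baseline differences did not pass without the 5 untreated C57BL/6 arrays, at 0.13 for FVB (adjusted p = 0.708), 0.33 for B2KO (adjusted p = 0.371) and 0.28 for B6129SF2/J (adjusted p = 0.610). The lowest untreated C57BL/6 array at Map1lc3a, array 6 (6.71), also had the lowest 75th percentile of intensity of the 84 arrays (3.49).

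Bnip3, a receptor that marks mitochondria for removal and also promotes cell death, is induced by low oxygen. In C57BL/6 it ran from 6.97 to 8.54 (median 8.03) in isoproterenol hearts and from 6.02 to 8.00 (median 7.31) in untreated hearts, with 9 of 10 isoproterenol arrays above the untreated mean. The rise was 0.81 ± 0.21 (adjusted p = 0.00324), or 1.75-fold. It rested on the 5 untreated arrays that grouped apart, which read 6.02 to 6.73 where the other 6 read 7.31 to 8.00. Without them the change was 0.31 ± 0.24 and did not pass (adjusted p = 0.385), and without the other 6 it was 1.40 ± 0.25 (adjusted p = 9.96e-06). In B6129SF2/J isoproterenol hearts had 7.41 to 8.12 (median 7.72) and untreated hearts 6.68 to 7.72 (median 7.12), and all 12 isoproterenol arrays lay above the untreated mean. That change of 0.54 ± 0.21 did not pass (adjusted p = 0.101). It passed with quantile normalization (0.62, adjusted p = 0.00125), with arrays centred on their genes, with array weights and in the line's own fit (adjusted p = 0.00426).

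In FVB and B2KO the Bnip3 changes were 0.15 ± 0.21 (adjusted p = 0.789) and 0.12 ± 0.23 (adjusted p = 0.873). Averaged over the lines Bnip3 rose by 0.40 ± 0.11 (adjusted p = 0.00293) and Map1lc3a by 0.31 ± 0.10 (adjusted p = 0.0125), which with Asb5 were the 3 genes called in that average. Without the 5 untreated C57BL/6 arrays the averages were 0.28 for Bnip3 (adjusted p = 0.0368) and 0.16 for Map1lc3a, which did not pass (adjusted p = 0.152). No difference between the lines' Bnip3 changes passed the test.

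Gabarapl1 encodes another Atg8 family protein. At 1416419_s_at it ran from 5.40 to 6.93 (median 6.31) in isoproterenol C57BL/6 hearts and from 4.94 to 6.26 (median 5.81) in untreated ones, with 9 of 10 isoproterenol arrays above the untreated mean. The rise was 0.62 ± 0.19 (adjusted p = 0.00996). It was lost with the failed array kept (adjusted p = 0.191). The 5 untreated arrays that grouped apart read 4.94 to 5.69 and the other 6 read 5.81 to 6.26, and without those 5 the change was 0.34 ± 0.22 and did not pass (adjusted p = 0.302). Across 84 arrays its other probe set, 1416418_at, had a rho of 0.61 with this one. In C57BL/6 1416418_at had means of 5.91 on isoproterenol and 5.27 without, and untreated array 11, in doubt by Gapdh, read 3.95. Without the 5 untreated arrays that grouped apart its change was 0.55 ± 0.40 and did not pass (adjusted p = 0.353). In the other lines the changes were 0.11 ± 0.18 in FVB, -0.00 ± 0.20 in B2KO and 0.13 ± 0.18 in B6129SF2/J, none past the threshold (adjusted p = 0.832, 0.995 and 0.735).

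The windows of Bnip3 and Gabarapl1 are shown as the pair of genes with an entry that rose in C57BL/6 over all arrays. The Bnip3 window, chr7:138909457-138909756 on the minus strand, holds CACGTG from position -108, in capitals, where the matches on both strands overlap. The Gabarapl1 window, chr6:129532942-129533241 on the plus strand, held none of the 4 motifs searched, which were the FoxO core and the hypoxia core spelled above, the cAMP response element TGACGTCA (found in 1.79% of windows) and the lysosomal CLEAR core TCACGTGA (0.974%).
Bnip3: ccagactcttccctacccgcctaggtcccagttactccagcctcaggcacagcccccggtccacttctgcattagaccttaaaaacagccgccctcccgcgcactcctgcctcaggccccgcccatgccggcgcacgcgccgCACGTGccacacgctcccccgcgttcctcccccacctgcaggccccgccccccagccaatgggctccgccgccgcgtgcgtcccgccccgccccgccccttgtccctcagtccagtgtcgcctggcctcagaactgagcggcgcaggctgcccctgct
Gabarapl1: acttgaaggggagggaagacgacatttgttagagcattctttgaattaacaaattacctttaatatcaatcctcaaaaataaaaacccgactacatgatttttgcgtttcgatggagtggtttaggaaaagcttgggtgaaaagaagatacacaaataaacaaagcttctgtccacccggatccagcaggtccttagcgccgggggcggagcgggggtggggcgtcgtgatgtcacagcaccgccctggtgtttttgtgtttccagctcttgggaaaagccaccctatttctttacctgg

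Of the other windows, that of 1 Asb2 start held the CLEAR core at position -24, with the hypoxia core inside it, and the Sqstm1 window held no match.

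Sqstm1 encodes p62, the adaptor that links ubiquitin-tagged cargo to LC3. In C57BL/6 it ran from 6.78 to 8.02 (median 7.45) in isoproterenol hearts and from 5.92 to 7.55 (median 7.03) in untreated hearts, a change of 0.51 ± 0.25 that did not pass (adjusted p = 0.114). In B2KO it ran from 7.35 to 8.02 (median 7.58) on isoproterenol and from 3.26 to 7.88 (median 7.45) without, a change of 0.64 ± 0.26 (adjusted p = 0.313). The lowest value, 3.26, was untreated array 8. Without that array the C57BL/6 rise passed (adjusted p = 0.0101), while without the 5 untreated C57BL/6 arrays that grouped apart, which read 5.92 to 6.74 where the other 6 read 7.03 to 7.55, it was 0.11 (adjusted p = 0.826). Without untreated B2KO array 8 the B2KO change was 0.22 ± 0.17 (adjusted p = 0.716). The changes in FVB and B6129SF2/J were -0.02 ± 0.24 and -0.10 ± 0.24 (adjusted p = 0.980 and 0.859). Its second probe set, 1444021_at, was dim, with group means between -1.04 and 0.22.

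Becn1 encodes Beclin 1, a subunit of the lipid kinase complex that starts the autophagosome membrane. At 1455880_s_at it ran from 5.53 to 6.46 (median 6.28) in isoproterenol B6129SF2/J hearts and from 4.80 to 6.03 (median 5.56) in untreated ones. All 12 isoproterenol arrays lay above the untreated mean and 8 above every untreated array. The rise was 0.62 ± 0.21 (adjusted p = 0.0456), and it was lost when any of 14 of the 22 B6129SF2/J arrays was left out and with the replicate number as a block (adjusted p = 0.0661), in the unfiltered fit (adjusted p = 0.0703) and with the failed array kept (adjusted p = 0.315).

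In C57BL/6 Becn1 ran from 5.24 to 6.42 (median 6.03) on isoproterenol and from 5.79 to 7.02 (median 6.24) without, a change of -0.38 ± 0.21 (adjusted p = 0.168). It passed with probe sets averaged (-0.41, adjusted p = 0.00742) and with arrays centred on their genes (-0.55, adjusted p = 0.0265). The FVB and B2KO changes were 0.18 ± 0.21 and -0.21 ± 0.22 (adjusted p = 0.736 and 0.747). The B6129SF2/J and C57BL/6 changes differed by 1.00 ± 0.29 (adjusted p = 0.0187). Among untreated hearts, FVB and B6129SF2/J read lower than C57BL/6 by -0.59 ± 0.21 (adjusted p = 0.0394) and -0.86 ± 0.21 (adjusted p = 0.00303). None of these 3 Becn1 comparisons passed without the 5 untreated C57BL/6 arrays (adjusted p = 0.145, 0.176 and 0.104 in that order).

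The other Becn1 probe sets gave other values. At 1437006_x_at the signal fell in C57BL/6, with -0.77 to 1.09 (median 0.20) in isoproterenol hearts and 1.02 to 3.14 (median 1.63) in untreated hearts (-1.46 ± 0.27, adjusted p = 3.32e-05). In that line 9 of 10 isoproterenol arrays lay below every untreated array, and without the 5 untreated arrays that grouped apart the change was -1.21 ± 0.31 (adjusted p = 0.00795). Means at 1435219_x_at were 2.43 on isoproterenol and 2.38 without in C57BL/6, and 2.28 and 2.76 in B6129SF2/J. At 1460320_at the same means were 4.08 and 3.96, and 4.43 and 4.15. In B6129SF2/J 1437006_x_at had 0.87 and 1.48. Across 84 arrays, rho between pairs of Becn1 probe sets past the filter ran from -0.19 to 0.28. Averaged over the Becn1 probe sets, the B6129SF2/J change was -0.03 (adjusted p = 0.911). No direction for Becn1 as a gene holds over its probe sets in C57BL/6 or B6129SF2/J. Which of them reads its RNA was not tested.

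**Figure D3:**
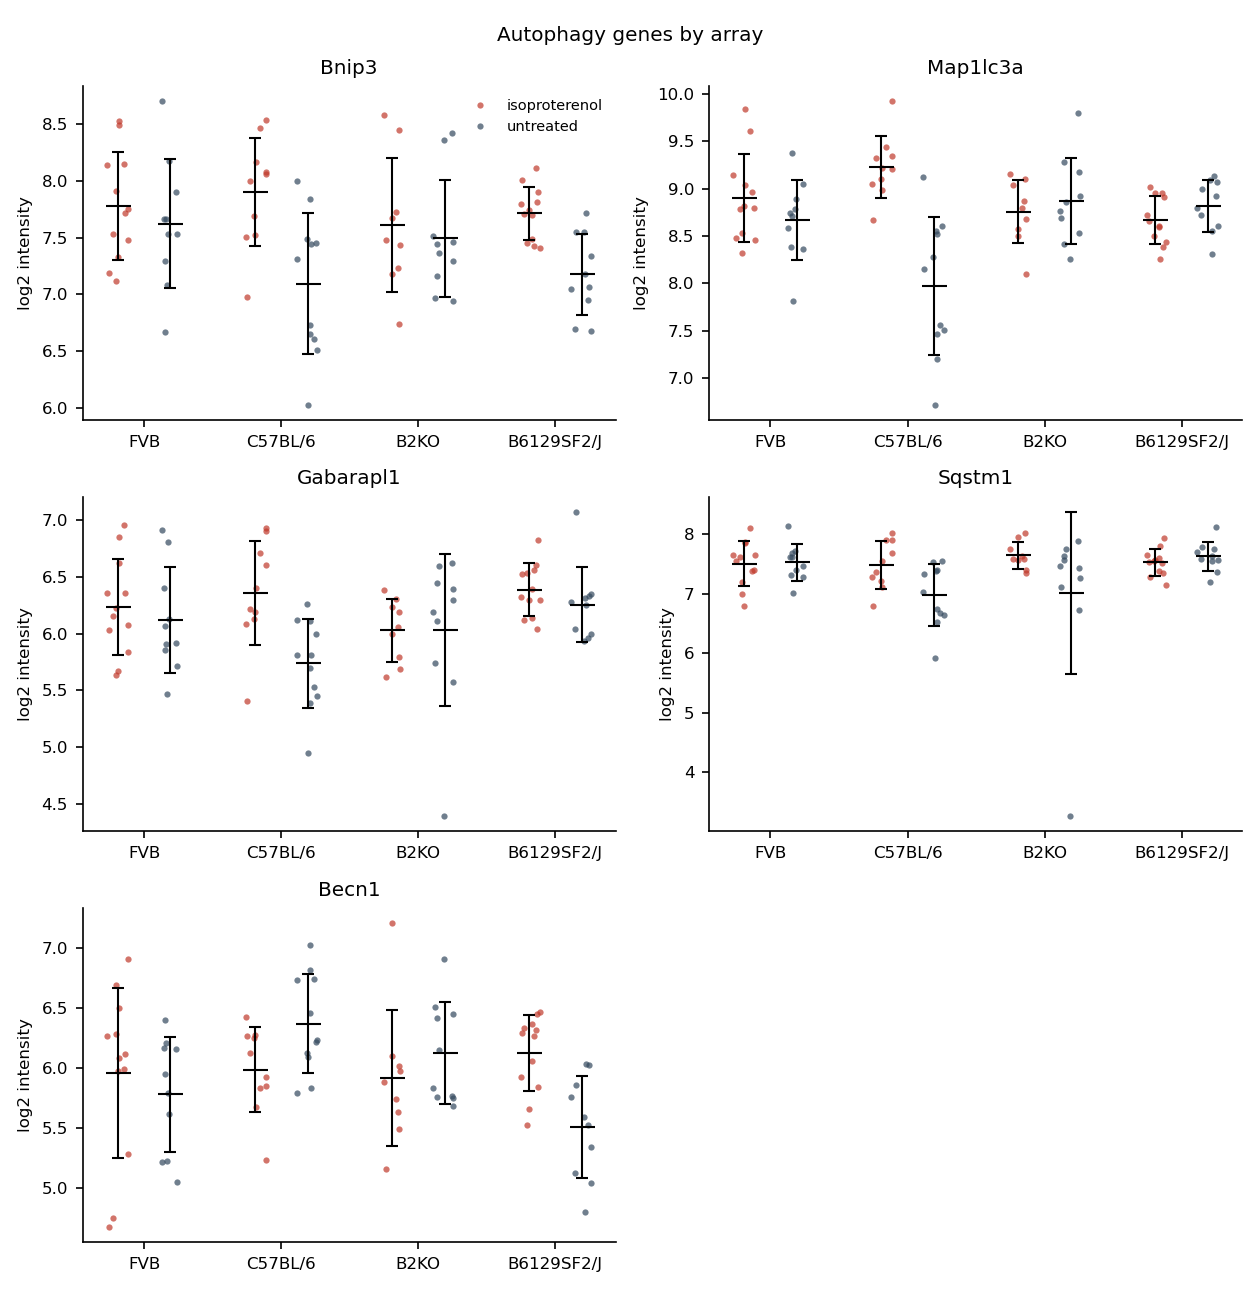
Log2 intensity of the 5 autophagy genes on each array (points), with the group mean and SD (bars), for isoproterenol and untreated hearts of 4 lines. Bnip3, Map1lc3a and Gabarapl1 are higher in isoproterenol C57BL/6 hearts, and untreated C57BL/6 hearts have the lowest Map1lc3a mean (7.97), with 5 of its arrays between 6.71 and 7.56.

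**Figure D4:**
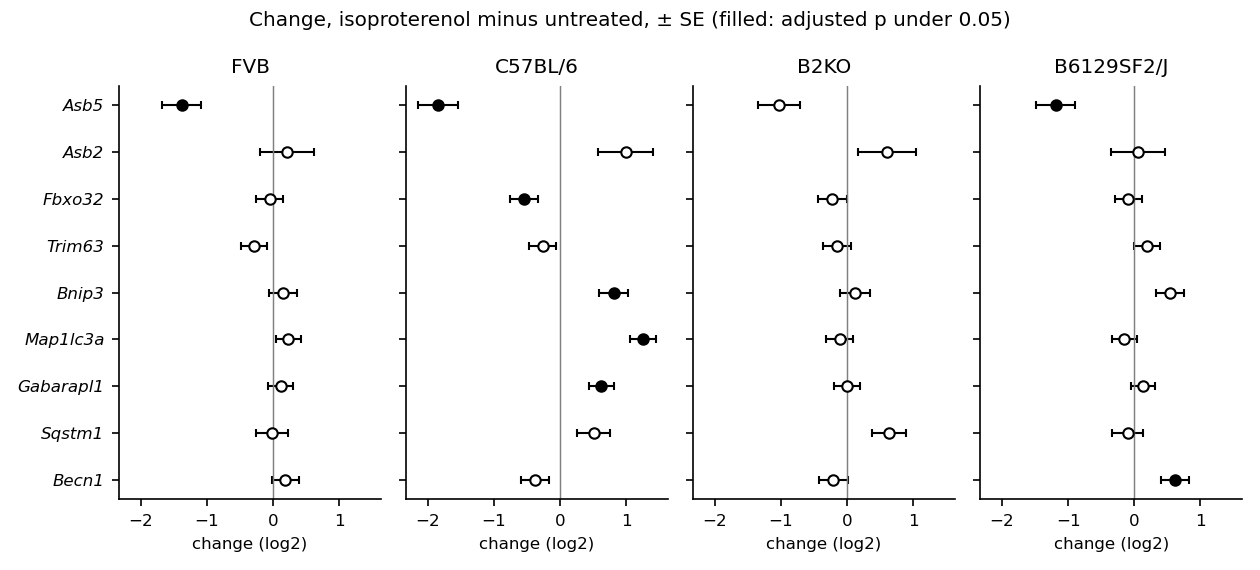
Change of each of the 9 genes in 4 lines, isoproterenol minus untreated on the log2 scale, with SE bars and filled points at an adjusted p under 0.05. Asb5 lies left of 0 in every line, from -1.85 in C57BL/6 to -1.03 in B2KO. The most filled points are in C57BL/6 (5, or 3 without the 5 untreated arrays that grouped apart). Of all genes, 27.1% and 10.6% changed there in the same 2 fits.

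The median change of the 9 genes was 0.51 in C57BL/6, where the median of all genes was 0.09. It was 0.11 in FVB, -0.11 in B2KO and 0.06 in B6129SF2/J, where the medians of all genes were -0.00, -0.08 and -0.02. In C57BL/6 the scaling moved the middle of all genes: centred on their genes, the median change was -0.07, and of the genes called 41.4% were higher, against 66.3% with the deposited scaling. Asb5 stayed lower and Bnip3, Map1lc3a and Gabarapl1 stayed higher at the threshold in C57BL/6 under both that scaling and quantile normalization, with all arrays kept. Without the 5 untreated arrays the median of all genes in C57BL/6 was -0.12 and that of the 9 genes was 0.11, the change of Sqstm1. Beside these rises, all 7 endothelial markers rose in C57BL/6 (median 1.31), with a summed level of 7.77 to 8.91 in isoproterenol hearts and 6.37 to 7.80 in untreated hearts, and 0 of 7 passed in each other line by limma. Also in C57BL/6, 3 of 8 cardiomyocyte markers and 5 of 8 fibroblast markers rose. Without the 5 untreated arrays 3 of 7 endothelial, 0 of 8 cardiomyocyte and 4 of 8 fibroblast markers rose there. Of 8 fibroblast markers 4 rose in FVB, 1 in B2KO and 5 in B6129SF2/J. Macrophage markers rose for 1 of 8 in FVB and C57BL/6, 0 of 8 in B2KO and 2 of 8 in B6129SF2/J, and in B6129SF2/J 3 of 4 lymphocyte markers fell. Of these, Cd79a and Cd79b had a mean above the array median only in untreated B6129SF2/J (0.15 and 0.42). They passed the filter through that group alone, from which their fall was measured. Of 3 erythroid markers with a probe set, Hba-a1 was under the array median in every group and was not tested. The 2 tested, Alas2 and Slc4a1, rose in FVB (adjusted p = 0.00455 and 0.0181), and Alas2 rose in C57BL/6 (adjusted p = 0.0107). Neither passed in C57BL/6 without the 5 untreated arrays. The Alas2 means were 6.63 in isoproterenol and 4.66 in untreated FVB hearts, and 6.71 and 5.21 in isoproterenol and untreated C57BL/6 hearts. Of 4 adipocyte markers Ucp1 rose in C57BL/6 (3.05), and of 2 lung epithelium markers Scgb1a1 fell in B6129SF2/J (-2.98). Scgb1a1 had a mean above the array median only in untreated B6129SF2/J (1.69) and untreated B2KO (0.42). The summed lung marker level in untreated B6129SF2/J hearts ran from 0.85 to 8.90 with a median of 1.42. The part of cell composition in the changes of the 9 genes was not tested.

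Around these genes, 94 further genes of the same pathways were listed, and 86 were tested. In C57BL/6, 17 were higher and 7 lower, or 27.9%, near the 27.1% of all genes. Without the 5 untreated C57BL/6 arrays 2 were higher and 10 lower, where 10.6% of all genes changed (4.26% higher, 6.36% lower). Without the other 6 untreated C57BL/6 arrays 34 were higher and 3 lower, or 43.0%, against 40.0% of all genes. Unless said otherwise, the C57BL/6 values of pathway genes that follow are over all arrays. In FVB 0 were higher and 2 lower, or 2.33%, against 3.14% of all genes. In B6129SF2/J 1 was higher and 4 lower, or 5.81%, against 8.41% of all genes. In B2KO none passed by limma, where 0.36% of all genes did. In the average of the lines 8 were higher and 15 lower, or 26.7%, against 28.3% of all genes. Of 18 other muscle ubiquitin ligases, 1 rose and 6 fell in the average of the lines, and the median change was -0.18, against -0.00 for all genes. The rise was in Smurf1, a ligase of growth factor signalling (0.51, adjusted p = 1.70e-04). In C57BL/6 Smurf1 read 0.97 ± 0.21 (adjusted p = 4.06e-04), and 0.48 without the 5 untreated arrays (adjusted p = 0.169). Fbxo30, another F-box ligase, fell in C57BL/6 (-0.60, adjusted p = 0.0333).

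Of 7 further genes of the Asb family, 5 fell in the average of the lines and 0 rose, where 13.7% of all genes were lower and 14.6% higher. These 7 are part of the list of 18 other muscle ubiquitin ligases, and the 5 are among its 6 that fell. Asb14 was lower by -0.56 ± 0.09 in the average (adjusted p = 9.76e-07). Its means were 4.93 and 5.44 in isoproterenol and untreated FVB hearts. The same means were 5.41 and 5.95 for C57BL/6, 5.03 and 5.64 for B2KO, and 5.51 and 6.09 for B6129SF2/J. It passed alone in C57BL/6 (adjusted p = 0.0185) and B6129SF2/J (adjusted p = 0.0268). Asb15 was lower by -0.61 ± 0.12 in the average (adjusted p = 4.64e-05) and passed in C57BL/6 (-0.76, adjusted p = 0.0113). Asb10 was lower by -1.02 ± 0.26 in B6129SF2/J (adjusted p = 0.00542) and read 0.24 in C57BL/6 (adjusted p = 0.529). In the average Asb10 was lower by -0.46 (adjusted p = 0.00601), Asb11 by -0.40 (adjusted p = 0.00503) and Asb12 by -0.37 (adjusted p = 0.00859), while Asb8 read 0.07 and Asb18 -0.13 and did not pass. Asb14 and Asb15 also passed in C57BL/6 without the 5 untreated arrays (adjusted p = 0.00571 and 0.0210). They did not pass as lower there without the other 6. In that fit 5 of the 18 other muscle ubiquitin ligases were higher and 0 lower, where 32.9% of all genes were higher and 7.11% lower.

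Of 7 cullin partners of these ligases, Rbx1, the RING subunit of many cullin complexes, rose in C57BL/6 (0.87 ± 0.31, adjusted p = 0.0283) and fell in B6129SF2/J (-1.21 ± 0.30, adjusted p = 0.00507). Rbx1 was dim. Its group mean was above the array median only in untreated B6129SF2/J (0.10), through which it passed the filter. The B6129SF2/J fall was thus measured from the group that let Rbx1 into the test. In C57BL/6 its means were -0.82 on isoproterenol and -1.68 without, both under the array median. Rnf7, the RING subunit that works with Cul5, fell in C57BL/6 (-0.80 ± 0.23, adjusted p = 0.00582). Skp1, which joins F-box proteins such as Fbxo32 to Cul1, rose there (0.79 ± 0.22, adjusted p = 0.00539). Cul5 itself fell in the average of the lines (-0.27, adjusted p = 0.0218). None of Rbx1, Rnf7 and Skp1 passed in C57BL/6 without the 5 untreated arrays (adjusted p = 0.137, 0.0921 and 0.362 in that order).

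Of 13 genes of FoxO and atrophy signalling, 2 rose and 4 fell in the average of the lines, where 14.6% of all genes were higher and 13.7% lower. Sesn1, a FoxO target that restrains growth signalling, had means of 5.45 and 6.38 in isoproterenol and untreated FVB hearts and of 5.32 and 6.57 in C57BL/6. The falls were -0.93 ± 0.23 in FVB (adjusted p = 0.00929) and -1.24 ± 0.23 in C57BL/6 (adjusted p = 4.11e-05). Klf15, a factor that opposes heart growth and promotes muscle protein breakdown, fell in FVB (-0.84 ± 0.22, adjusted p = 0.0141) and read -0.02 in C57BL/6 (adjusted p = 0.963), or -0.67 without the 5 untreated arrays (adjusted p = 0.0461). Cdkn1a, the cell cycle inhibitor p21, rose in C57BL/6 (1.66 ± 0.36, adjusted p = 2.84e-04) and in the average (0.81). Gadd45a, a stress response gene, fell in C57BL/6 (-0.61, adjusted p = 0.0458) and in the average (-0.49, adjusted p = 0.00109), and Eif4ebp1, a repressor of translation, fell in B6129SF2/J (-0.59, adjusted p = 0.0468). Sesn1, Cdkn1a and Gadd45a passed in C57BL/6 without the 5 untreated arrays too (adjusted p = 3.18e-04, 0.0199 and 0.0376 in that order). Without the other 6 untreated arrays 3 genes of this list were higher and 1 lower in C57BL/6.

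Of 16 genes of autophagy initiation and nucleation, 7 rose and 0 fell in C57BL/6 (median 0.39), where 18.0% of all genes were higher and 9.13% lower (median 0.09). Leaving out the 5 untreated arrays gave 0 higher and 1 lower (median 0.08). With all arrays the 7 included Atg13 (1.26 ± 0.29, adjusted p = 8.33e-04), a subunit of the Ulk1 kinase complex, and Atg9a (0.97 ± 0.24, adjusted p = 0.00162), the membrane protein of the first vesicles, with Ambra1 (0.81) and Atg2a (0.73). Without those 5 arrays Atg13 was 0.95 (adjusted p = 0.0626) and Atg9a 0.75 (adjusted p = 0.0721). With arrays centred on their genes the counts in this list were 4 higher and 3 lower, and with quantile normalization 2 higher and 3 lower. Atg13 also rose in B6129SF2/J (1.02 ± 0.29, adjusted p = 0.0153).

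Of 11 lysosome genes, 5 rose and 0 fell in C57BL/6 (median 0.40), where again 18.0% of all genes were higher and 9.13% lower (median 0.09). The count without the 5 untreated arrays was 1 higher and 0 lower (median 0.08). Over all arrays the counts were 5 and 0 with arrays centred on their genes and 6 and 0 with quantile normalization. Ctsd, the lysosomal protease cathepsin D, had means of 8.28 and 6.87 in isoproterenol and untreated C57BL/6 hearts (1.40 ± 0.36, adjusted p = 0.00204). Tfeb, the factor that drives lysosome genes, rose by 1.10 ± 0.30 (adjusted p = 0.00358), and Atp6v1h and Lamp1 rose by 0.85 and 0.58. Of these, Tfeb passed without the 5 untreated arrays (1.06, adjusted p = 0.0434) and Ctsd did not (1.12, adjusted p = 0.0747). In the average of the lines Ctsd (0.70), Tfeb (0.37), Gaa (0.24) and Ctsb (0.21) rose. Among 13 genes of Atg8 conjugation, Atg10, an enzyme of the Atg12 conjugation step, was lower by -1.15 ± 0.26 in C57BL/6 (adjusted p = 5.16e-04) and by -0.81 ± 0.13 in the average (adjusted p = 7.61e-07), and it passed in C57BL/6 without the 5 untreated arrays (-1.05, adjusted p = 0.0205). Among 8 cargo receptors, Fkbp8, a mitophagy receptor, rose in C57BL/6 (1.08 ± 0.30, adjusted p = 0.00509), and did not pass without them (adjusted p = 0.0942). Calcoco1 (-0.39, adjusted p = 5.58e-04) and Fundc1 (-0.33, adjusted p = 0.0106), also of that list, fell in the average.

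**Figure D5:**
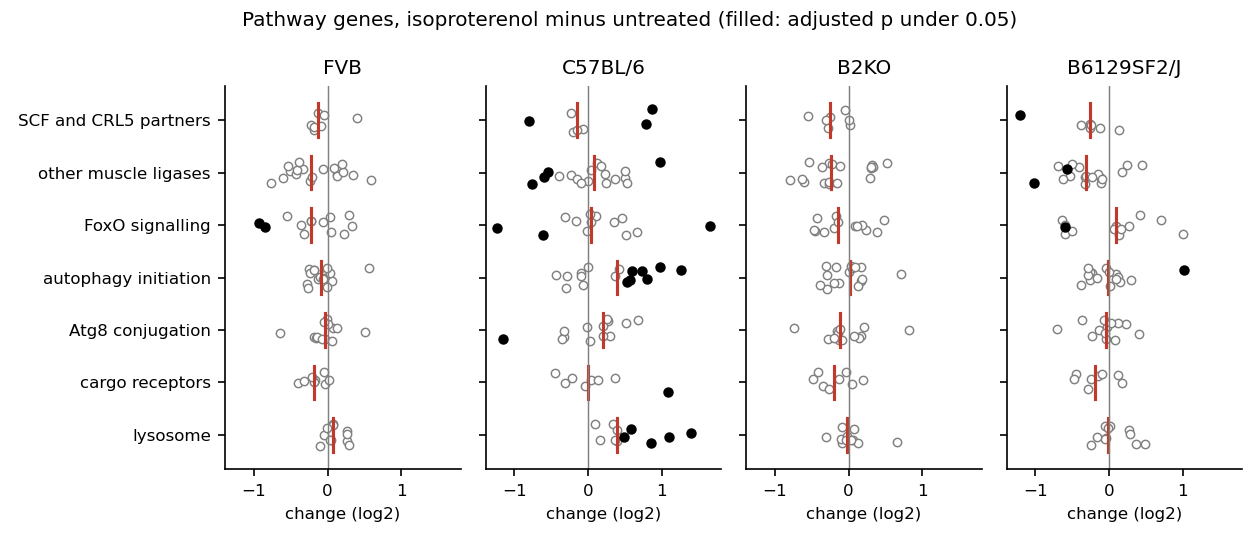
Change of each of 86 pathway genes in 4 lines, isoproterenol minus untreated on the log2 scale, by list, filled at an adjusted p under 0.05, with the list's median as a vertical bar. C57BL/6 holds 24 of the filled points in this plot, and there the medians of autophagy initiation (0.39) and lysosome genes (0.40) lie right of 0.

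Across the 84 arrays, the genes with levels most like each gene's were found by Spearman's rho, as a description, since the arrays share line, treatment and RNA quality. Asb5 was most like Sesn1 (rho = 0.83), Frem2 (0.83) and Hint3 (0.82), and on deviations from the group means these were 0.68, 0.65 and 0.73. Asb2 was most like Slc12a7 (0.84), Slc2a4, the insulin-responsive glucose transporter (0.83), and Srl (0.83). Fbxo32 at its brightest probe set was most like Pde1c (0.81), Upf2 (0.79) and Rb1cc1, a subunit of the Ulk1 complex (0.76).

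Trim63 had weaker neighbours, Gnl2 (0.66), Camk2d (0.65) and Chfr (0.63). Bnip3 was most like Ifitm3 (0.78), Slc25a5, a mitochondrial ADP/ATP carrier (0.77), and Thbd (0.77). Map1lc3a was most like Oaz2 (0.77), Tpi1 (0.77) and Emc10 (0.76), and Gabarapl1 most like Lgmn, a lysosomal protease (0.77), Tbc1d16 (0.76) and Mprip (0.75). Becn1 was most like Wsb1 (0.86), Scpep1 (0.83) and Actr3 (0.80).

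Within the 9 genes, the highest rho was between Sqstm1 and Gabarapl1 (0.71, and 0.79 on deviations from group means), and Gabarapl1 was also the gene most like Sqstm1 among all genes. Gabarapl1 and Asb2 followed (0.63). The lowest was between Becn1 and Sqstm1 (-0.35). Trim63 and Fbxo32, the classical pair of muscle wasting, had a rho of 0.28.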

How the data were processed

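The members and gene lists were chosen with earlier results of these data known. The authors deposited one intensity per probe set and array, on a linear scale, computed with GCRMA per the submitters' processing notes. Every array had a median of 1, and log2 of the deposited value was used. Probe sets were named from the platform annotation, with symbols updated by gene number from the RefSeq table of GRCm38.p6. Each gene was read from the probe set with the highest mean, and genes were kept where the highest group mean was above log2 0. A single fit over 8 groups of line by treatment was made in limma 3.58.1 (R 4.3.3), with two-sided tests and Benjamini-Hochberg adjustment over 11961 genes, and gave 17 comparisons. It was tested on simulated data.

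An array pair with r over 0.9999 counted as duplicates, an array with a median r under 0.7 as failed, and one with a Gapdh difference over 2 as in doubt. Of 86 arrays, 84 entered the fit. Per the labels' protocols mice were assigned at random, and p-values measure the spread between these arrays, whose number limits the precision. Replicate numbers only name mice: same-numbered arrays deviated together with a median r between -0.03 and 0.01 in the 4 lines. The rule for named genes covered all members and their probe sets. Per pathway list and comparison, up to 4 genes past the threshold with the largest change were named, and per member the 3 genes most alike. Untreated C57BL/6 arrays were clustered by average linkage on 1 minus r into 3 groups, after seeing the data. Alternatives covered the filter, probe set averaging, scaling, moderation, array weights, a replicate block and arrays left out.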

Additional observations from a re-analysis of the deposited data

Results flagged for a closer look

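Among the 45 combinations of gene and group small enough to test, 7 held an array that lay far from the others. Chance gives about 1 in 20 for separate combinations. These combinations share arrays, and 4 of the 7 were the same array, so the count cannot be set against that rate. Untreated B2KO array 8 was the lowest at 4 genes: Trim63 read 4.95 (next lowest 7.19), Asb2 0.00 (7.19), Sqstm1 3.26 (6.73) and Gabarapl1 4.39 (5.57). That array had a Gapdh 3′ to 5′ difference of 7.31, and its part in these values was not tested. Untreated B2KO array 1 was the lowest at Asb5 (2.81, next 4.44). Untreated B6129SF2/J array 8, also in doubt by Gapdh, was the highest at Gabarapl1 (7.07, next 6.35), and isoproterenol B2KO array 3 the highest at Becn1 (7.21, next 6.11).

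With each gene read at its brightest probe set, the isoproterenol change differed between lines by the test of the difference itself for 2 genes. For Map1lc3a, FVB minus C57BL/6 was -1.03, B2KO minus C57BL/6 -1.37 and B6129SF2/J minus C57BL/6 -1.41. For Becn1, B6129SF2/J minus C57BL/6 was 1.00. Without untreated C57BL/6 arrays 1, 2, 3, 4 and 6 none of these 4 differences passed (adjusted p = 0.485, 0.240, 0.0893 and 0.145 in that order). At Fbxo32 1448747_at, which is not its brightest probe set, B6129SF2/J minus C57BL/6 passed over all arrays. It also passed without those arrays (-2.90, adjusted p = 0.00343).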

How the results depend on the processing

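The calls for Asb5 in FVB, C57BL/6 and B6129SF2/J and for Bnip3 and Map1lc3a in C57BL/6 kept their direction and their side of the threshold under all planned settings. Among those settings Gabarapl1 in C57BL/6 lost its call only with the failed array kept (adjusted p = 0.191). Averaging probe sets turned Fbxo32 in C57BL/6 to 0.61 and Becn1 in B6129SF2/J to -0.031, and the cause was not tested. With array weights the counts of genes called were 2 in FVB, 8 in C57BL/6, 2 in B2KO, 5 in the average, 12 differences between effects and 18 between untreated lines. With the failed array kept they were 3 in C57BL/6, 1 in B2KO, 1 in B6129SF2/J and 3 between untreated lines. The unfiltered fit gave 1 in B6129SF2/J. Quantile normalization gave 6 in the average and 15 between untreated lines, centring on genes 5 and 13, and averaged probe sets 8 between untreated lines. Of all genes, 1943 were higher and 2226 lower in the average with quantile normalization, and 1807 and 2555 with centring. The main fit had 1748 and 1642. Without the 7 arrays in doubt there were 8 differences between effects and 13 between untreated lines. With the replicate block the counts were 1 in FVB, 5 in C57BL/6, 0 in B2KO, 1 in B6129SF2/J, 3 in the average, 4 differences and 5 between untreated lines. Leaving out each array of the same line in turn gave 1 to 1 in FVB, 4 to 5 in C57BL/6, 0 to 1 in B2KO and 1 to 2 in B6129SF2/J. With each of the 84 arrays left out in turn, there were 3 to 4 in the average, 4 to 8 differences and 4 to 13 between untreated lines. The highest of the last pair of ranges were both without untreated B2KO array 8. Leaving that array out was chosen after seeing the data, and Asb2 and Sqstm1 then passed in C57BL/6 as well. It also lowered the SE shared over all groups. Also chosen after seeing the data were fits without untreated C57BL/6 arrays 1, 2, 3, 4 and 6 and without the other 6 untreated C57BL/6 arrays. The first gave 3 in C57BL/6, 3 in the average, 0 differences between effects and 0 between untreated lines, and the second 5, 5, 12 and 13. Of all genes, 10.6% changed in C57BL/6 in the first and 40.0% in the second. Bnip3 and Gabarapl1 in C57BL/6 lost their calls in the first (adjusted p = 0.385 and 0.302) and Fbxo32 in the second (adjusted p = 0.326). The sets came from clustering genes outside all lists, which share the arrays with the members, so neither fit is independent of the outcome. How far sequence differences between the lines shift probe signals was not tested.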
